A study of Homo sapiens with 18 samples.

Results

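The response of CAL27 cells to ICG-001 was measured in 6 of the 18 arrays of the study, 3 from cells on 10 µM ICG-001 and 3 from cells on vehicle, assigned by the titles of the arrays. CAL27 is an established line of human oral squamous cell carcinoma (OSCC). The cells were treated in separate wells with 10 µM ICG-001 or with 0.1% DMSO for 48 to 64 h, and total RNA was hybridized to Affymetrix Human Gene 2.0 ST arrays. The other 12 arrays are of a second OSCC line, HSC-3, of which 6 carry the same comparison and serve here as the reference response, and 6 are of an siRNA experiment that was not used here. The study took CAL27 cells to represent non-metastatic and HSC-3 cells metastatic disease. Both are single lines. Whether the wells were independent cultures is not stated, so that p-values measure only the spread between these wells.

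β-catenin carries Wnt signals into the nucleus, where it binds TCF and LEF factors and recruits histone acetyltransferases, among them CBP, to switch genes on. ICG-001 is a small molecule that binds CBP and blocks its contact with β-catenin. CBP also serves many other transcription factors, including those of the interferon, NF-κB and hypoxia responses. Squamous epithelial cells of the mouth carry their own innate defence, made of S100 proteins, serpins, chemokines and interferon-stimulated genes, and these genes are often active in squamous carcinoma.

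Values are log2 intensities normalized by robust multi-array average (RMA), with 1 probeset per Entrez gene, and differences are log2 fold changes, ICG-001 minus DMSO. On the 6 CAL27 arrays, medians lay between 4.74 and 4.77 and values between 0.603 and 12.5. Replicate arrays correlated at 0.993 to 0.996, and arrays of different treatment at 0.989 to 0.992. Of 8 squamous epithelial markers, 7 were above the array median on all 6 arrays, whereas 6 of 8 fibroblast, 4 of 6 endothelial and 5 of 7 leukocyte markers were at or below it on all 6. COL1A2, COL3A1, PECAM1, VWF, PTPRC and CD3E were among the latter. The endothelial marker CDH5 was high in CAL27 cells, with 8.10, 8.32 and 8.34 on DMSO and 7.23, 7.53 and 7.40 on ICG-001, a fall of 0.87. In bulk RNA of this kind, fewer cells with a transcript and less of it per cell cannot be told apart.

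ICG-001 changed 453 of 13493 tested genes in CAL27 cells (3.36%), of which 221 were higher (1.64%) and 232 lower (1.72%). A call required an adjusted limma p no higher than 0.01 and a change of 1.5-fold or more. The median log2 fold change was 0.82 among the genes called higher and -0.83 among those called lower, against 0.004 over all tested genes. On the 3 and 3 arrays the values of all 453 did not overlap between treatments, which held for 36.8% of all tested genes. At least 2-fold changes were found for 63 genes called higher and 76 called lower, and at least 4-fold changes for 4 and 14. With an adjusted p of at most 0.05 alone, 719 genes were higher (5.33%) and 796 lower (5.9%), and this rule is used for the gene lists that follow. The counts rested on all 6 arrays. Without DMSO array 1, 2 or 3 the calls were 128 higher and 149 lower, 83 and 85, and 132 and 118, and without ICG-001 array 1, 2 or 3 they were 88 and 96, 97 and 114, and 75 and 83. All 453 genes kept their direction under each omission, and 135 were called under every one (65 higher and 70 lower).

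**Figure D1:**
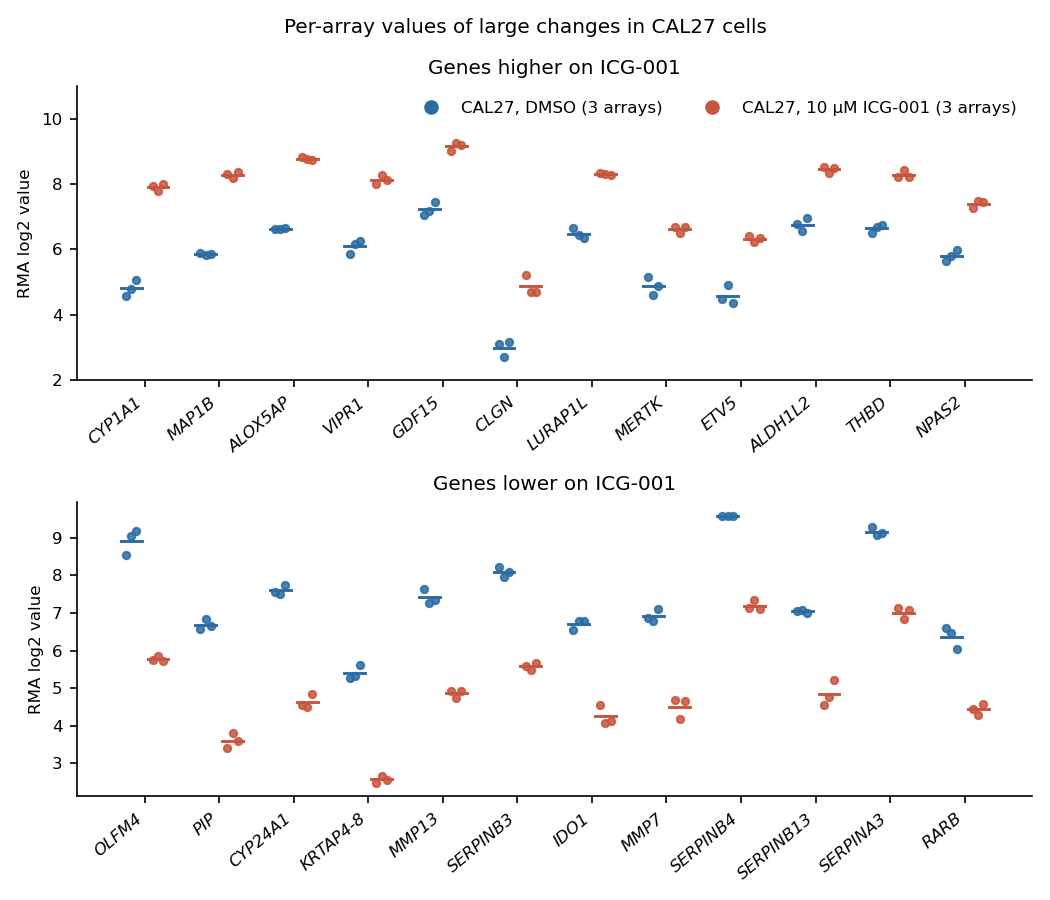
RMA log2 values (y axis) of 12 genes among the largest rises and 12 among the largest falls in CAL27 cells, on the 3 DMSO arrays (blue) and the 3 arrays with 10 µM ICG-001 (red). Points are arrays and bars are means of 3; for each gene drawn the 2 treatments do not overlap, from CYP1A1 with a log2 fold change of 3.10 to OLFM4 with -3.15.

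The largest rise was that of CYP1A1 (Entrez 1543), a monooxygenase of xenobiotic metabolism and the classical target of the aryl hydrocarbon receptor (AHR). Its values were 4.58, 4.78 and 5.06 on DMSO and 7.92, 7.79 and 8.01 on ICG-001. The log2 fold change was 3.10 ± 0.13 (SE, 8.60-fold, adjusted p = 2.01e-05). AHR binds such genes as a dimer with ARNT once a ligand has entered the cell. Of 11 tested genes of the AHR pathway, 5 rose and 0 fell, with a median of 0.24, where 5.33% and 5.9% of all tested genes did. AHRR, which encodes the repressor that closes the AHR feedback loop, rose by 1.07 (standard error 0.12, adjusted p = 0.00188) from 4.61, 4.39 and 4.77 to 5.51, 5.74 and 5.73. CYP1B1, ALDH3A1 and NQO1, which also act on xenobiotics and aldehydes, had 0.86, 0.92 and 0.54. The receptor itself and TIPARP, another of its targets, did not pass the test (0.14 with adjusted p = 0.289, and 0.09 with adjusted p = 0.521). All 5 rises were found under every omission of an array. In HSC-3 cells 9 of the 11 rose and 0 fell, where 24.2% and 23.6% of all tested genes did, and CYP1A1 had 5.86 there, so that the response of CAL27 was smaller by 2.75 on the log2 scale (difference -2.75, 95% confidence interval -3.16 to -2.35, adjusted p = 2.51e-06).

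A broad rise was that of genes driven by ATF4, a transcription factor that responds to amino acid shortage and other stress. It binds amino acid response elements in genes that make, import and load amino acids. Of 56 tested targets 40 rose and 0 fell, at a median of 0.58, and 27 met the stricter call. With 1 array left out the count was between 34 and 38. By role, 8 of 14 regulators, 11 of 14 enzymes of amino acid and one-carbon metabolism, 6 of 9 amino acid transporters, 11 of 14 tRNA synthetases and 4 of 5 secreted factors and receptors rose. ATF4 itself, which is controlled largely at translation, had 9.29, 9.25 and 9.08 on DMSO and 9.37, 9.50 and 9.45 on ICG-001 and did not pass (0.23, adjusted p = 0.163).

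Among the regulators, TRIB3, a pseudokinase that restrains ATF4 signaling, had 8.03, 7.87 and 8.06 on DMSO and 9.48, 9.54 and 9.61 on ICG-001. SESN2, a leucine sensor that holds back mTORC1, went from 6.48, 6.60 and 6.56 to 7.95, 8.14 and 8.18. Their log2 fold changes were 1.56 (standard error 0.09, adjusted p = 0.000113) and 1.55 (standard error 0.10, adjusted p = 0.000153). CHAC1, which degrades glutathione, rose by 1.35 and NUPR1, a stress-induced nuclear protein, by 1.22. DDIT3, which encodes the stress factor CHOP, rose by only 0.48 (adjusted p = 0.0223), and ATF3, another factor of the same response, had -0.26 and did not pass (adjusted p = 0.264). GDF15, a secreted stress hormone, had 7.06, 7.16 and 7.45 on DMSO and 9.001, 9.243 and 9.204 on ICG-001, a log2 fold change of 1.93 ± 0.13 (SE, 3.81-fold, adjusted p = 0.000153). VEGFA, the angiogenic growth factor, rose by 1.01.

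In the enzymes of serine and one-carbon metabolism, PHGDH, the entry enzyme of serine synthesis, had 9.01, 9.43 and 9.57 on DMSO and 10.59, 10.63 and 10.69 on ICG-001. The log2 fold change was 1.30 ± 0.14 (SE, adjusted p = 0.00172). PSAT1 and PSPH, the next steps of that pathway, rose by 0.73 and 0.42, and SHMT2 and MTHFD2, mitochondrial enzymes that take up the carbon of serine, by 0.58 and 0.45. ALDH1L2, a mitochondrial enzyme of folate metabolism, went from 6.76, 6.57 and 6.94 to 8.52, 8.33 and 8.49, a log2 fold change of 1.69 ± 0.12 (SE, adjusted p = 0.000212). GPT2, an alanine transaminase, rose by 1.12. ASNS, asparagine synthetase, had 8.381, 8.127 and 8.001 on DMSO and 9.30, 9.34 and 9.25 on ICG-001 (1.13, standard error 0.11, adjusted p = 0.00117). Of the transporters, SLC1A4 for neutral amino acids rose by 1.10 and SLC7A11, the cystine importer, by 0.88. WARS1, MARS1, AARS1 and SARS1, which load tryptophan, methionine, alanine and serine onto tRNA, rose by 1.01, 0.64, 0.62 and 0.76.

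The amino acid response element, a composite site for ATF4 and a C/EBP partner, was searched as TGATGNAA on both strands in the 250 bases before the start of 27305 annotated genes (RefSeq, GRCh38.p14). It was present in 3.19% of these promoters and in 7 of 44 matched ATF4 targets (15.9%), of which 5 were among the 29 matched members that rose and 2 among the 15 others. The windows around the matches in ASNS and CHAC1 are printed because both genes rose; capitals mark the match, which lies on the reverse strand in CHAC1.
ASNS, chr7:97872449-97872496, - strand: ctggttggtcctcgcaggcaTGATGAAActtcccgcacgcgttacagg
CHAC1, chr15:40953242-40953289, + strand: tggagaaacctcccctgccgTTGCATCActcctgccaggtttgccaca
The first base of the match was 68 bases before the start in ASNS and 209 before it in CHAC1. For the AHR pathway the xenobiotic response element was searched as TNGCGTG in the same way. It was present in 4.53% of all promoters and in 2 of 8 matched members, which were 1 of the 3 that rose and 1 of the 5 others. The match in AHRR began 32 bases before the start, and the window of CYP1A1 held none.
AHRR, chr5:321662-321708, + strand: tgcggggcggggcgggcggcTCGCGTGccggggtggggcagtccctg
Such matches describe the sequence and were not tested for binding.

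Genes of growth factor feedback also rose. Signals through the EGF receptor and the MAP kinases ERK1 and ERK2 switch on ETV4 and ETV5, transcription factors, together with the SPRY and DUSP proteins that dampen the same signal. Of 27 tested EGFR ligands, receptors and feedback genes, 9 rose and 0 fell, at a median of 0.15. ETV5 had 4.48, 4.89 and 4.36 on DMSO and 6.40, 6.21 and 6.36 on ICG-001, a log2 fold change of 1.75 ± 0.14 (SE, 3.36-fold, adjusted p = 0.000485). ETV4 went from 5.09, 5.71 and 5.98 to 6.77, 6.82 and 6.83 (1.21, standard error 0.20, adjusted p = 0.00891), and the inhibitor SPRY4 from 3.77, 3.52 and 3.96 to 4.88, 4.83 and 4.89 (1.11, standard error 0.12, adjusted p = 0.00151). SPRY2 and PHLDA1 rose by 0.86 and 0.69, and the phosphatases DUSP6 and DUSP4 by 0.53 and 0.49. Among the ligands, HBEGF rose by 0.91 and TGFA by 0.57. With 1 array left out, 7 or 8 of the 9 passed.

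Other large rises belonged to single genes of several systems. MAP1B, a microtubule-associated protein of neurons, had 5.88, 5.82 and 5.85 on DMSO and 8.30, 8.19 and 8.35 on ICG-001. The log2 fold change was 2.44 ± 0.09 (SE, 5.41-fold, adjusted p = 1.66e-05), and the related MAP2 rose by 1.24. ALOX5AP, the protein that presents arachidonic acid for leukotriene synthesis, had 6.62, 6.61 and 6.67 on DMSO and 8.81, 8.76 and 8.75 on ICG-001 (2.14, standard error 0.08, adjusted p = 1.66e-05). VIPR1, a receptor for vasoactive intestinal peptide, rose by 2.05, and MERTK, a receptor tyrosine kinase that clears apoptotic cells, by 1.75. CLGN, a chaperone of the endoplasmic reticulum best known from testis, rose by 1.87 at low values. It had 3.10, 2.69 and 3.17 on DMSO and 5.20, 4.69 and 4.69 on ICG-001. Of the 12 arrays only CAL27 ICG-001 array 1 had CLGN above the array median, so that it was tested through that array and its rise is uncertain. PDGFA, a growth factor for mesenchymal cells, rose by 1.44 and THBD, the thrombin receptor thrombomodulin, by 1.64. PORCN, which lipidates Wnt ligands for secretion, rose by 1.41 (adjusted p = 0.00705), although its call was lost without DMSO array 2 or 3 and without ICG-001 array 1, 2 or 3, with an adjusted p of up to 0.0289, and also without the intensity filter and with a replicate block.

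In the other direction, interferon-stimulated genes were lower. These genes are switched on by factors that include STAT2 and IRF9 through interferon-stimulated response elements and encode antiviral effectors. Of 47 tested, 21 fell and 1 rose, at a median of -0.36, and 40 of the 47 had a negative log2 fold change; 10 met the stricter call. The 21 became 20, 13 and 16 without DMSO array 1, 2 or 3 and 12, 13 and 12 without ICG-001 array 1, 2 or 3. IFIT1, which binds viral RNA ends, had 5.59, 5.69 and 5.72 on DMSO and 4.13, 4.07 and 4.06 on ICG-001, a log2 fold change of -1.58 ± 0.08 (SE, adjusted p = 6.11e-05). IFI44 went from 8.54, 8.57 and 8.56 to 7.59, 7.47 and 7.48 (-1.04, standard error 0.08, adjusted p = 0.000412). GBP2, a guanylate-binding GTPase, went from 8.28, 8.22 and 8.21 to 6.91, 7.04 and 7.22 (-1.18, standard error 0.10, adjusted p = 0.000551). The oligoadenylate synthetases OAS1 and OAS3 and the related OASL, which answer double-stranded RNA, had -1.03, -0.68 and -1.04.

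HERC5, a ligase for the ubiquitin-like ISG15, and BST2, which tethers budding virus, fell by 0.90 and 0.71. IFI44L, with the second largest fall of the list, varied widely, from 4.59, 5.11 and 5.61 on DMSO to 3.72, 4.14 and 3.06 on ICG-001 (-1.46, standard error 0.31, adjusted p = 0.0237). MX1, a GTPase often used to read interferon activity, and ISG15 did not pass (-0.28 with adjusted p = 0.108, and -0.03 with adjusted p = 0.860). STAT2 and IRF9 had 0.09 and -0.43 in CAL27 cells (adjusted p = 0.569 and 0.212) and rose by 1.08 and 0.71 in HSC-3 cells. LAMP3, a lysosomal membrane protein, was the 1 member that rose (0.54, adjusted p = 0.0152). Of 27 genes that sense or transmit interferon signals 4 fell and 1 rose. The RNA sensors TLR3 and RIGI fell by 0.72 and 0.67.

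**Figure D2:**
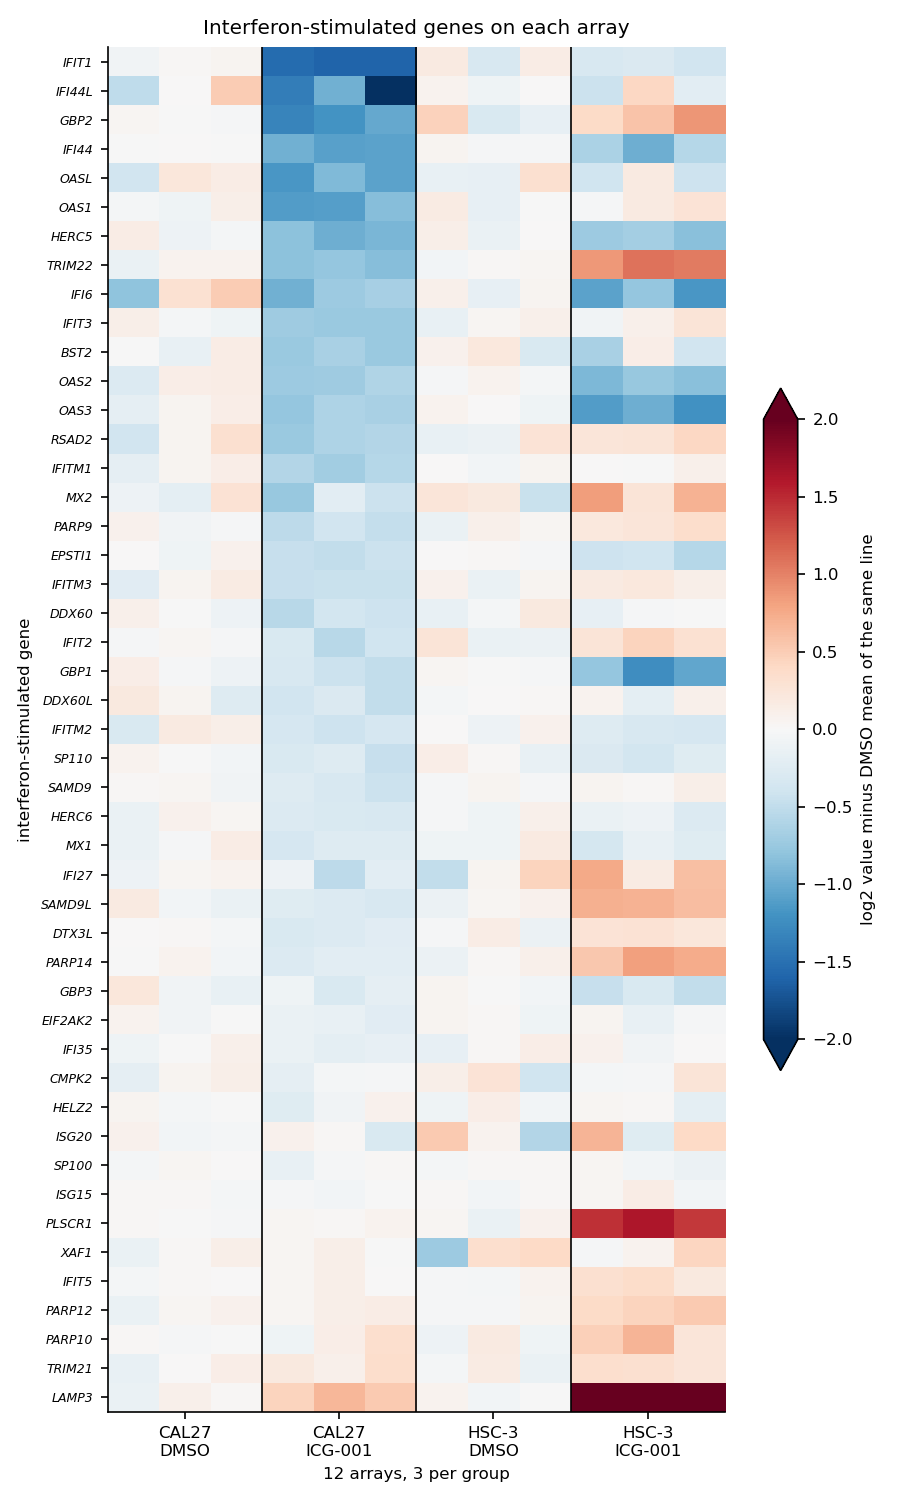
Difference of each array from the DMSO mean of its own line, on the log2 scale (color, limited to 2 in either direction), for 47 interferon-stimulated genes (rows, ordered by the response in CAL27) on 12 arrays (columns). The CAL27 arrays with ICG-001 are blue from IFIT1 through much of the column, with 40 of 47 genes negative, while the HSC-3 arrays with ICG-001 hold rises such as LAMP3 and falls such as OAS3.

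The interferon-stimulated response element was searched as GAAA, any 2 bases and again GAAA on both strands of the same promoters. It was present in 3.07% of all promoters and in 22 of 38 matched members of the list (57.9%), of which 13 were among the 16 matched members that fell and 9 among the 22 others. Windows are printed for 4 genes that fell, as 5′ to 3′ sequence on the strand of the gene. Capitals mark the matches, which read TTTC, 2 bases and TTTC where they lie on the reverse strand.
IFIT1, chr10:89392487-89392549, + strand: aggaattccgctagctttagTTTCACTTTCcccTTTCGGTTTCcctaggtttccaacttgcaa
IFIT3, chr10:89327821-89327904, + strand: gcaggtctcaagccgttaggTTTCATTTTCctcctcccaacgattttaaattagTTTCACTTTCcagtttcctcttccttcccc
BST2, chr19:17405725-17405780, - strand: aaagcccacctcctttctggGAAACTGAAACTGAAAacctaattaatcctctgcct
HERC5, chr4:88456974-88457074, + strand: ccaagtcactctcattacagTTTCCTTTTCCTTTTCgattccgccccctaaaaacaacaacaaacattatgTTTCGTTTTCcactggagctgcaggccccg
IFIT1 and IFIT3 each held 2 matches, the most upstream of which began 116 and 156 bases before the start. BST2 held 2 overlapping matches from 130 bases before the start, and HERC5 held 3 from 125 bases before it.

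MHC class I genes did not share this direction, although they too respond to interferon. Of 20 tested genes of class I chains and peptide supply, 3 rose and 1 fell, where 5.33% and 5.9% of all tested genes did. The median of the 20 was 0.22. The chains HLA-B and HLA-F rose by 0.69 and 0.58 (adjusted p = 0.00709 and 0.00968), and CALR, a chaperone of the peptide-loading complex, fell by 0.41. HLA-C had 0.42 and did not pass (adjusted p = 0.0637). Probes for these chains can share sequence, so that the values of single chains are uncertain.

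Large falls were found among secreted and cytosolic proteins of mucosal and skin defence. Of 21 tested genes 8 fell, all by the stricter call, and 2 rose, at a median of -0.34. OLFM4, a secreted glycoprotein of mucosal crypts and neutrophils, had 8.55, 9.04 and 9.18 on DMSO and 5.74, 5.85 and 5.71 on ICG-001, a log2 fold change of -3.15 ± 0.16 (SE, 8.90-fold lower, adjusted p = 5.39e-05). PIP, a secreted protein of salivary and other glands, went from 6.58, 6.83 and 6.65 to 3.40, 3.80 and 3.60 (-3.08, standard error 0.13, adjusted p = 1.66e-05). The calcium-binding S100A8 and S100A9, which together form calprotectin, had -1.50 and -1.36 (adjusted p = 0.00136 for each). S100A8 lay at 9.88, 10.39 and 10.47 on DMSO and at 8.67, 8.72 and 8.85 on ICG-001.

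S100A7, an antimicrobial protein of inflamed skin also called psoriasin, had 8.77, 9.45 and 9.73 on DMSO and 6.92, 7.85 and 7.50 on ICG-001. The log2 fold change was -1.89 ± 0.29 (SE, adjusted p = 0.00618), and that of the near-identical S100A7A was -2.04 (standard error 0.34, adjusted p = 0.00875). Signals of the probes for these 2 cannot be fully separated, and both calls were lost without DMSO array 2 or 3 and without ICG-001 array 1 or 3 (and that of S100A7A without ICG-001 array 2), at adjusted p of up to 0.0256 and 0.0341. AGR2, a disulfide isomerase of secretory cells, fell by 1.21 and MUC4, a membrane mucin, by 0.82. The 2 that rose were RNASE7, an antimicrobial ribonuclease of skin (0.72), and LCN2, which binds bacterial siderophores (0.43, adjusted p = 0.0415). The protease inhibitors SLPI and PI3 did not pass (-0.27 with adjusted p = 0.474, and -0.68 with adjusted p = 0.207). The 8 that fell became 12 without DMSO array 1 and stayed 8 under the other omissions.

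Clade B serpins, intracellular inhibitors of serine and cysteine proteases, fell in 6 of 10 tested members and rose in 1, at a median of -0.53. SERPINB3 and SERPINB4, the near-identical squamous cell carcinoma antigens, had 8.22, 7.96 and 8.10 and 9.58, 9.58 and 9.59 on DMSO. On ICG-001 they had 5.60, 5.47 and 5.68 and 7.14, 7.35 and 7.10. Their log2 fold changes were -2.51 (standard error 0.10) and -2.39 (standard error 0.09), at an adjusted p of 1.66e-05 for each, but the 2 genes cannot be told apart with certainty by their probes. SERPINB13, an inhibitor of cathepsins in squamous epithelium, had 7.05, 7.08 and 6.99 on DMSO and 4.54, 4.77 and 5.23 on ICG-001 (-2.19, standard error 0.16, adjusted p = 0.000313). SERPINB9, which inhibits granzyme B, SERPINB7 and SERPINB1, an inhibitor of neutrophil proteases, fell by 0.86, 0.56 and 0.50. SERPINB2, which inhibits the plasminogen activator urokinase, rose by 0.94 (adjusted p = 0.00191), and SERPINB5, known as maspin, had -0.27 and did not pass (adjusted p = 0.224). Leaving out any 1 array left 6 members lower. Genes of the cornified envelope and of squamous differentiation were near the share of all tested genes, with 1 of 28 higher and 2 lower at a median of 0.01. Of all tested genes 5.33% were higher and 5.9% lower. Of 7 kallikreins 0 passed, where 11.2% of all tested genes did.

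Chemokines and acute phase proteins fell in part. Of 41 tested genes of this group 12 fell and 5 rose, at a median of -0.16. SERPINA3, an acute phase inhibitor of cathepsin G, had 9.29, 9.07 and 9.12 on DMSO and 7.12, 6.85 and 7.07 on ICG-001, a log2 fold change of -2.15 ± 0.11 (SE, adjusted p = 5.39e-05). The serum amyloid genes SAA1 and SAA2, which resemble each other closely, had -0.99 and -1.70. The neutrophil attractants CXCL1 and CXCL8 and CCL20, which attracts dendritic and T cells, fell by 1.14, 0.64 and 0.96. TNFSF10, the death ligand TRAIL, fell by 1.11. Rises were those of IL1RN, the antagonist of the interleukin-1 receptor (1.19, adjusted p = 0.000623), the chemokines CX3CL1 (0.86) and CXCL11 (0.69), and the cytokines IL11 (0.63) and IL6 (0.33). The 5 rises became 3 without DMSO array 1 or 2 or ICG-001 array 1 or 2. IDO1, which degrades tryptophan and is induced by interferon-γ, lay outside these lists and fell from 6.54, 6.78 and 6.79 to 4.55, 4.08 and 4.13 (-2.45, standard error 0.14, 5.47-fold lower, adjusted p = 9.90e-05). CD69, an early activation antigen of lymphocytes, fell by 1.72. SNORA2A, a small nucleolar RNA that guides pseudouridylation, and KRTAP4-8, a hair keratin-associated protein with close relatives, had -3.14 and -2.83, and few probes or shared sequence make their values uncertain.

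Matrix proteases moved in both directions. Of 13 proteases tested 6 fell and 2 rose, and of 6 inhibitors and receptors 5 rose and 1 fell. MMP13, a collagenase, had 7.64, 7.27 and 7.33 on DMSO and 4.93, 4.75 and 4.92 on ICG-001 (-2.55, standard error 0.12, 5.85-fold lower, adjusted p = 3.41e-05). MMP7, matrilysin and a known β-catenin target in intestinal tumors, had 6.87, 6.78 and 7.11 on DMSO and 4.68, 4.18 and 4.67 on ICG-001 (-2.41, standard error 0.15, adjusted p = 0.000153). MMP1, another collagenase, fell by 0.87 at low levels (adjusted p = 0.0285). PLAU, the plasminogen activator urokinase, and its inhibitor SERPINE2 rose by 0.84 and 1.39. Of 25 tested basal keratinocyte genes 5 rose and 3 fell, at a median of 0.11, where 5.33% and 5.9% of all tested genes did. The laminin genes LAMA3 and LAMB3, which encode parts of the anchor of basal keratinocytes, rose by 0.61 and 0.57. Of 4 keratins of basal cells, KRT14 and KRT15 fell by 0.96 and 1.03 and 2 did not pass.

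Vitamin D and retinoid genes contained 3 of the large falls. CYP24A1, the enzyme that inactivates vitamin D and a direct target of its receptor, had 7.56, 7.51 and 7.75 on DMSO and 4.56, 4.49 and 4.84 on ICG-001, a log2 fold change of -2.98 ± 0.12 (SE, 7.86-fold lower, adjusted p = 1.66e-05). RARB, a retinoic acid receptor that retinoic acid itself induces, went from 6.59, 6.46 and 6.03 to 4.44, 4.29 and 4.58 (-1.93, standard error 0.15, adjusted p = 0.000415). DHRS9, a retinol dehydrogenase, fell by 1.85, while ALDH1A3, which makes retinoic acid, rose by 0.93 (adjusted p = 0.00151). In total 5 of 18 tested members fell and 1 rose, at a median of -0.07, and without any 1 of the 6 arrays the 5 became 3.

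Hypoxia response genes fell in 7 of 14 tested members and rose in 2, and 1 of 18 glycolytic genes fell. CA9, a carbonic anhydrase on the cell surface that is a standard hypoxia marker, had 6.40, 6.41 and 6.58 on DMSO and 4.76, 4.69 and 4.77 on ICG-001 (-1.72, standard error 0.09, adjusted p = 6.11e-05). EGLN3, a prolyl hydroxylase that marks HIF for decay, and BNIP3, a receptor of mitophagy, had -1.50 and -0.79. ANGPTL4, an inhibitor of lipoprotein lipase, rose by 1.14. The 8 falls of both groups became 4 without DMSO array 2 or 3 or without any 1 ICG-001 array. Lipid synthesis also fell in part. Of 26 genes of cholesterol synthesis and its control 8 fell and 0 rose, at a median of -0.28, with STARD4, a sterol carrier, at -1.33 and INSIG1, which retains SREBP, at -0.82; the 8 became 5 without ICG-001 array 2 or 3. SCD, the desaturase of stearate, fell by 1.02.

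Cell cycle genes fell broadly but by small amounts. Of 79 tested mitosis genes 52 fell and 0 rose at a median of -0.46, and of 56 DNA replication genes 28 fell and 1 rose at a median of -0.33; 10 and 6 met the stricter call. MKI67, the proliferation marker Ki-67, had 10.51, 10.41 and 10.36 on DMSO and 9.86, 9.75 and 9.84 on ICG-001 (-0.61, standard error 0.09, adjusted p = 0.0048). TYMS, thymidylate synthase, fell by 0.93 and HELLS, a chromatin remodeler that the study names, by 0.66. These counts depended strongly on single arrays. Without DMSO array 1, 2 or 3 the mitosis count was 34, 24 and 39, and without ICG-001 array 1, 2 or 3 it was 35, 26 and 18. The replication count was 16, 10 and 16, and 14, 12 and 10, in the same order. CDKN1A, the p53-induced inhibitor p21, did not pass (0.05, adjusted p = 0.785). Of 26 tested cell cycle inhibitors and p53 targets 0 rose and 3 fell, where 5.33% and 5.9% of all tested genes did.

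**Figure D3:**
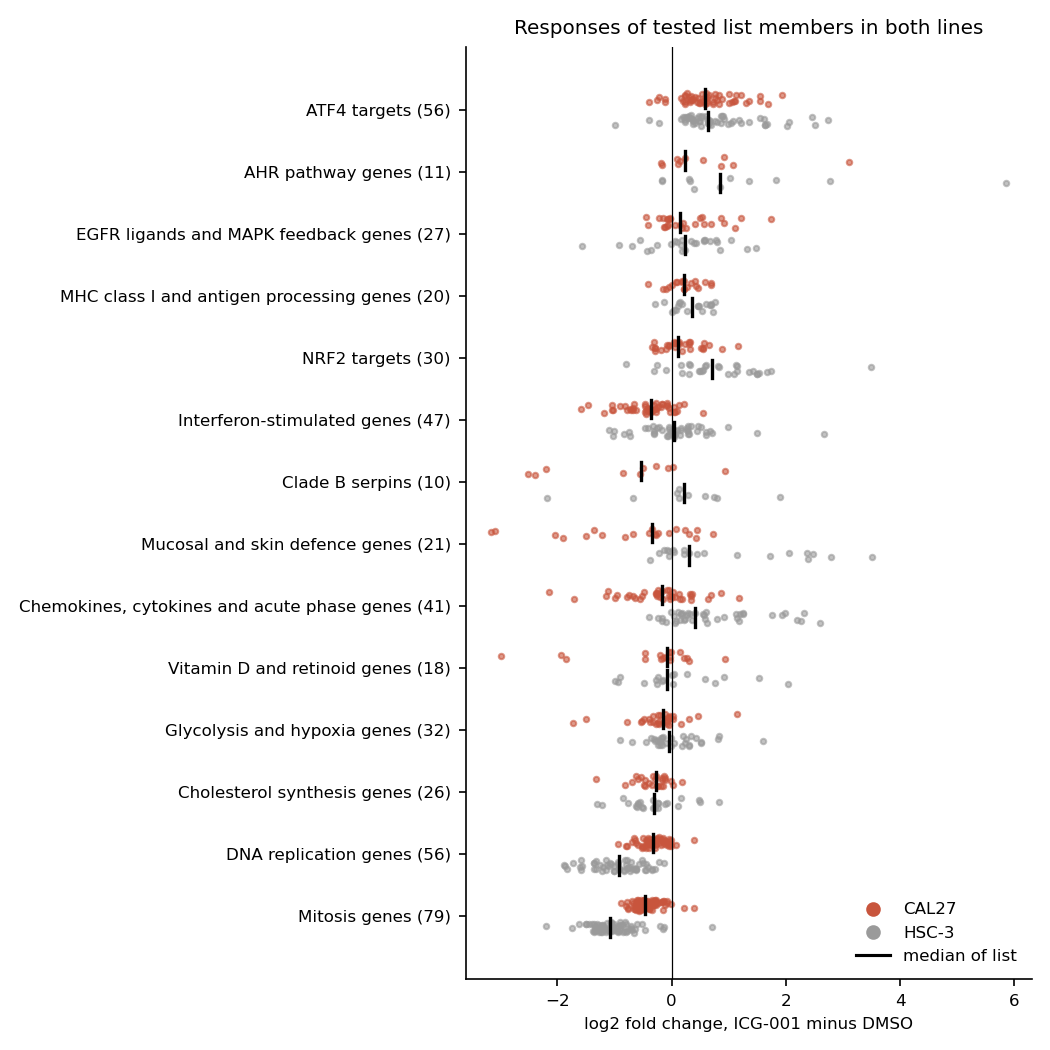
Log2 fold changes (x axis, ICG-001 minus DMSO) of the tested members of 14 gene lists in CAL27 (red) and HSC-3 cells (gray), with the number of members in parentheses and the median as a black bar. The CAL27 medians run from 0.58 for ATF4 targets to -0.53 for clade B serpins, and those of mitosis and DNA replication genes (-0.46 and -0.33) lie nearer to 0 than in HSC-3 cells (-1.07 and -0.91).

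The genes of β-catenin and its partners showed no call, while some Wnt genes moved. Of 17 tested genes of the β-catenin complex and its TCF, LEF and coactivator partners 0 passed, at a median of -0.02. Over all tested genes 11.2% passed, a share at which few of 17 would. CTNNB1, the gene of β-catenin, had 9.86, 9.80 and 9.76 on DMSO and 9.72, 9.70 and 9.68 on ICG-001 (-0.10, 95% confidence interval -0.29 to 0.08, adjusted p = 0.449). Of 17 tested Wnt ligands, feedback and target genes 4 fell and 2 rose, where 5.9% and 5.33% of all tested genes did. WNT5A, a noncanonical ligand, had -0.71 and WNT7A had 0.51. AXIN2, the usual reporter of β-catenin activity, was at or below the median on all arrays and was not tested.

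A response larger in CAL27 than in HSC-3 cells was found for 126 of the 453 genes. It required a call in CAL27, a called difference between the lines from limma over 12 arrays (adjusted p no higher than 0.01 and a difference of at least 1.5-fold, met by 11.6% of tested genes) and a larger size in CAL27. Of the 126 genes 47 were higher on ICG-001 (0.348% of tested genes) and 79 lower (0.585%). In HSC-3 cells 111 of them were not called, 7 were called in the same direction and 8 in the opposite one. Overall HSC-3 responded more widely, with 17% of tested genes called, and of the 453 genes 206 were also called there in the same direction, 32 in the opposite one and 215 not at all. Without 1 of the 12 arrays the 47 fell to between 21 and 42 and the 79 to between 43 and 78. Without CAL27 DMSO array 1, 2 or 3 they were 28 and 64, 24 and 43, and 31 and 56, and without CAL27 ICG-001 array 1, 2 or 3 they were 21 and 46, 24 and 52, and 21 and 45. With a replicate block they were 19 and 46.

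The starting levels of the lines differed for these genes. Of the 79 with a larger fall, 70 had a lower mean on DMSO in HSC-3 than in CAL27 cells (88.6%), against 70.7% of the 232 genes called lower in CAL27 cells and 48.1% of all tested genes. By more than 1 on the log2 scale 57 were lower (72.2%, against 41.8% and 7.25%). For 33 of the 79 the HSC-3 mean on DMSO was below the array median. On ICG-001, 54 of the 79 in CAL27 cells still lay above the HSC-3 mean on DMSO. Of the 47 with a larger rise, 19 started lower in HSC-3 cells (40.4%) and 28 higher. What part the starting level had in the differences was not tested.

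**Figure D4:**
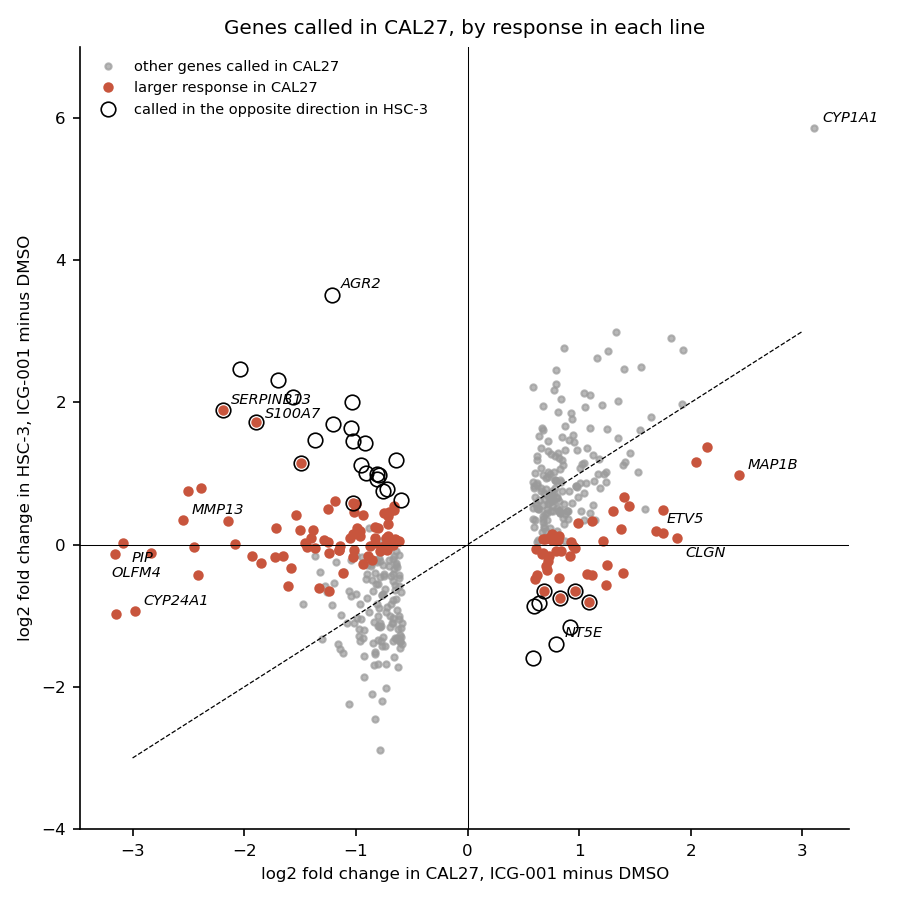
Log2 fold changes in CAL27 (x axis) and HSC-3 cells (y axis) of the named genes among the 453 called in CAL27, with larger responses in CAL27 in red, the 32 genes called in the opposite direction in HSC-3 as open rings, and equal responses on the dashed line. Most red points lie near 0 on the y axis, and AGR2, SERPINB13 and S100A7 lie in the quadrant of a fall in CAL27 and a rise in HSC-3.

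Among the larger falls, several were of genes at low values in HSC-3 cells, where a fall could hardly be measured. OLFM4 and PIP had HSC-3 means on DMSO of 2.79 and 2.39, below the array median on all 6 HSC-3 arrays, and log2 fold changes there of -0.14 and 0.02, so that the difference of the responses restates the fall in CAL27 cells. SERPINB3 and SERPINB4 had 1.81 and 1.79 on DMSO in HSC-3 cells, and IDO1 had 3.35. Other genes lay above the array median in HSC-3 cells. MMP13 had a mean of 6.27 on DMSO in HSC-3 cells and 6.62 on ICG-001, and its difference was -2.90 (95% confidence interval -3.22 to -2.57, adjusted p = 5.60e-07). SERPINA3 had 5.86 and 6.19, with a difference of -2.48 (-2.81 to -2.15, adjusted p = 1.41e-06), and CXCL1 had 10.02 and 10.01, with a difference of -1.13 (-1.40 to -0.85, adjusted p = 8.54e-05). SCD, S100A9 and EGLN3, with HSC-3 means of 9.30, 7.94 and 5.19 on DMSO, differed by -0.95, -1.32 and -1.70.

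Larger rises in CAL27 cells included 3 of 21 tested feedback genes of the MAP kinase pathway. By called difference, 5 of the 21 responses were more positive in CAL27 and 6 more negative, where 5.14% and 6.49% of tested genes were. ETV5 had a mean of 5.01 on DMSO and 5.17 on ICG-001 in HSC-3 cells, so that its response differed by 1.58 (95% confidence interval 1.12 to 2.05, adjusted p = 0.00029). SPRY4 fell in HSC-3 cells from 6.44 to 6.01, and its response differed by 1.54 (1.22 to 1.87, adjusted p = 3.41e-05). ETV4 differed by 1.16 (0.63 to 1.68, adjusted p = 0.00433). The 2 enzymes ALDH1L2 and PHGDH stood out from the other ATF4 targets, with differences of 1.49 and 0.82, as did GPT2 with 0.79. In HSC-3 cells ALDH1L2 had 2.51 on DMSO and 2.71 on ICG-001, at or below the array median on all 6 HSC-3 arrays. Its difference thus largely restates the rise in CAL27 cells. MAOA, which oxidizes serotonin and noradrenaline, went from 7.36, 7.11 and 7.16 to 8.29, 8.22 and 8.34 in CAL27 cells and from 6.86 to 6.44 in HSC-3 cells, a difference of 1.49 (1.22 to 1.76, adjusted p = 9.45e-06).

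NOG, the secreted BMP antagonist noggin, showed the largest difference among the larger rises. It rose in CAL27 cells from 5.10, 4.84 and 5.18 to 6.22, 6.18 and 5.98 and fell in HSC-3 cells from 6.27 to 5.47, a difference of 1.89 (1.51 to 2.28, adjusted p = 2.39e-05). SHISA2, which holds back Wnt and FGF receptors in frog embryos, and ANTXR2, a receptor of anthrax toxin, also rose in CAL27 and fell in HSC-3 cells, with differences of 1.57 and 1.61. Their calls in CAL27 cells missed the threshold of 0.01 without DMSO array 2 or ICG-001 array 1 or 3, and that of ANTXR2 also without DMSO array 3 or ICG-001 array 2, at adjusted p of up to 0.0125 and 0.0261. LAPTM5, a lysosomal membrane protein of blood cells, rose by 1.24 in CAL27 cells (adjusted p = 0.00689, lost without DMSO array 2 or any 1 ICG-001 array, at up to 0.0280) and differed by 1.81. MAP1B differed by 1.46, and CLGN and MERTK, which were below the array median on all 6 HSC-3 arrays, by 1.79 and 1.27, the last of which missed the call without CAL27 DMSO array 2 or 3, CAL27 ICG-001 array 1 or 3, HSC-3 DMSO array 1 or HSC-3 ICG-001 array 2 or 3, at an adjusted p of up to 0.0131.

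**Figure D5:**
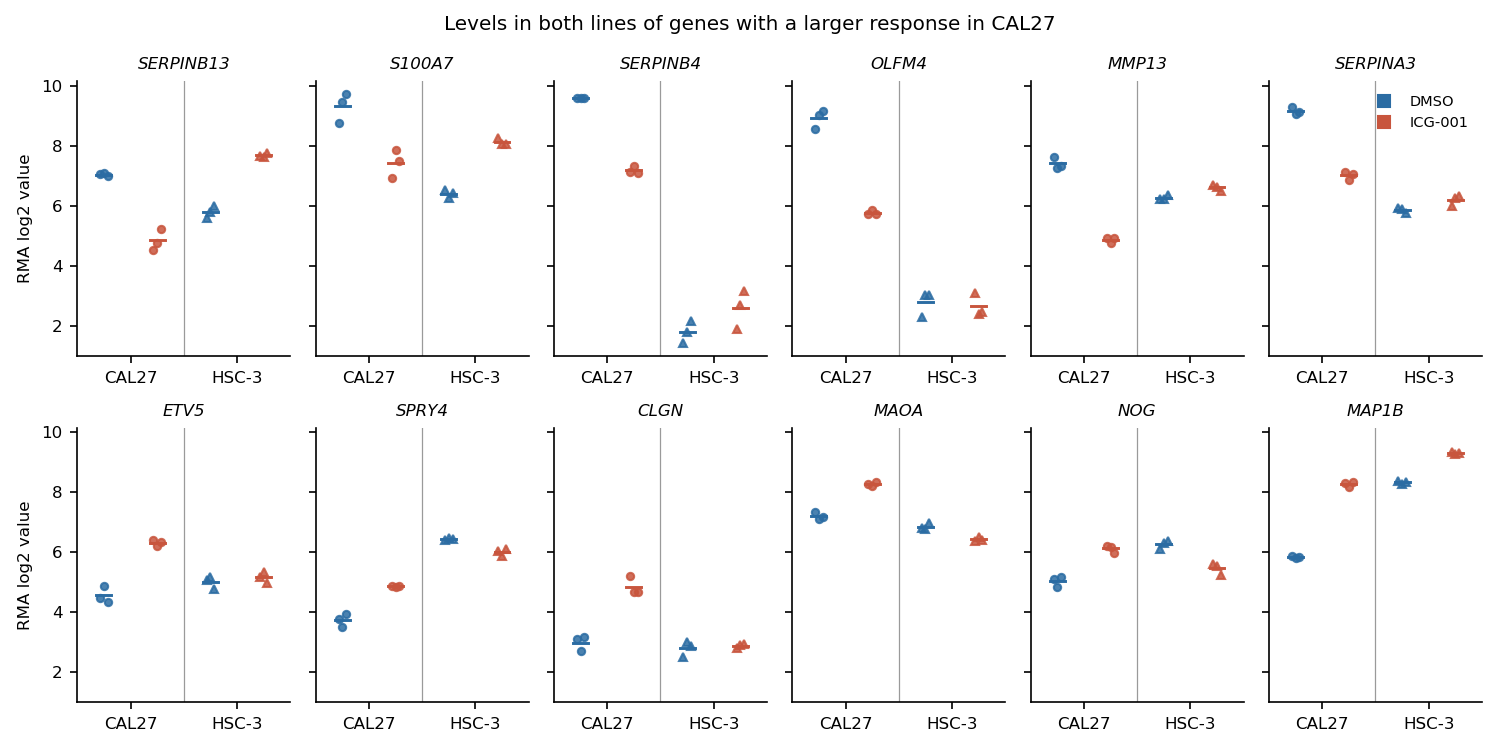
RMA log2 values (y axis) of 6 genes with larger falls (top) and 6 with larger rises in CAL27 cells (bottom), in CAL27 (circles) and HSC-3 cells (triangles), on DMSO (blue) and ICG-001 (red). Points are arrays and bars are means of 3; OLFM4 and SERPINB4 lie near the lower end in HSC-3 cells, with DMSO means of 2.79 and 1.79, while MMP13, MAOA and NOG have DMSO means of 6.27, 6.86 and 6.27 there.

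The 32 genes called in opposite directions were 23 that fell in CAL27 and rose in HSC-3 cells and 9 with the reverse. Of the 23, PXDN lay below the array median on all 6 CAL27 arrays, so that its fall there is uncertain. KLRC3 exceeded that median in CAL27 cells only on DMSO array 2 (4.78), so that its fall is uncertain too. MIR378D2 and SLC28A3 lay at or below it on all 6 HSC-3 arrays, so that their rises there are uncertain. Among the 23 were many of the defence genes. AGR2 fell in CAL27 cells from 6.40, 6.42 and 6.49 to 5.34, 5.17 and 5.17 and rose in HSC-3 cells from a mean of 4.33 to 7.85, the most negative of all these differences (-4.73, 95% confidence interval -5.11 to -4.35, adjusted p = 9.70e-08). SERPINB13 rose by 1.89 and S100A7 by 1.73 in HSC-3 cells, with differences of -4.09 and -3.62. S100A8, SAA2, CCL20, CXCL8, KRT15, TRIM22 and TLR3 rose there by 1.15, 2.31, 1.12, 1.20, 2.01, 1.00 and 0.78. PGLYRP4, which binds bacterial peptidoglycan, fell by 1.20 in CAL27 and rose by 1.70 in HSC-3 cells, and SCNN1A, a subunit of the epithelial sodium channel, fell by 1.03 and rose by 0.59. In the reverse group, NT5E, the ectonucleotidase CD73, had 0.79 in CAL27 and -1.39 in HSC-3 cells, AKAP12, a scaffold of protein kinase A, 0.59 and -1.60, and SEMA7A, a membrane-anchored semaphorin, 0.64 and -0.82.

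By list, the median difference of the responses was -1.32 for the defence genes and -0.04 for the ATF4 targets, whose members differed in both directions, with -0.53 for the regulators and 0.11 for the enzymes. Of 21 mucosal and skin defence genes 12 rose and 1 fell in HSC-3 cells, where 24.2% and 23.6% of all tested genes did. The median of the 21 was 0.31 there against -0.34 in CAL27 cells. For 11 of them the response was more negative in CAL27 by a called difference, and for 0 more positive, where 6.49% and 5.14% of tested genes met these calls. Of 41 chemokine, cytokine and acute phase genes 23 rose in HSC-3 cells, at a median of 0.41, and 24 had a more negative response in CAL27. Interferon-stimulated genes had a median of 0.05 in HSC-3 cells, with 11 of 47 higher and 10 lower, close to the shares of all tested genes there. Of the 47, 14 had a more negative response in CAL27. Among 56 ATF4 targets, 51 rose and 3 fell in HSC-3 cells at a median of 0.63, and 4 responses were more positive and 10 more negative in CAL27. In 79 mitosis and 56 replication genes, 38 and 25 responses were more positive in CAL27 and 0 more negative in either list, with HSC-3 medians of -1.07 and -0.91. The members of these lists were chosen with earlier results of these arrays known, so that their counts describe the response and are not independent evidence of it.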

How the data were processed

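RNA of CAL27 and HSC-3 cells was profiled with 3 arrays per group. The authors deposited log2 values from robust multi-array average (RMA) normalization with affy 1.36.1 in R 2.15.1, as the submitters' processing notes name them, with 1 probeset per Entrez gene from a custom chip definition. RMA makes the distributions of arrays equal, so that changes are relative to the other genes. The genome build was not given in the sources used here. RMA was run on the 12 ICG-001 and DMSO arrays together, and the siRNA arrays were left out.

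Of 23786 probesets 23093 were matched to a symbol by Entrez number in the RefSeq gene table (GRCh38.p14), and 693 were not named. Tests covered the 13493 probesets that exceeded the median of an array on 1 or more of the 12, and used limma 3.58.1 in R 4.3.3, in CAL27 and HSC-3 cells apart (6 arrays each) and for the difference of the responses (12 arrays). Benjamini-Hochberg adjustment was over all tested probesets. A call needed an adjusted p no higher than 0.01 and a 1.5-fold change, after the study's methods, and members of 36 lists (983 entries, 829 tested) were counted at 0.05. Confidence intervals are 95%.

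Named genes were the 20 largest rises and falls, the 15 largest differences in each direction, up to 10 members per list and genes the study names, given in part, with provisional symbols passed over. Genes named beyond this rule were picked once their values had been seen. The members and lists were chosen with earlier results of these data known. Alternatives were other filters, cyclic loess, equal medians, a trend and robust prior, array weights, a replicate block, 1 fit over 12 arrays, no fold threshold and leaving out each array. A few genes are not reported here. The steps were tested on simulated data. Promoters are 250 bases before the start from RefSeq.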

Additional observations from a re-analysis of the deposited data

Results flagged for a closer look

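The responses of the 2 lines differed for many of the genes named, by a tested difference from limma over 12 arrays (adjusted p of at most 0.01 and at least 1.5-fold). Values are CAL27 minus HSC-3 responses on the log2 scale. For 22 of these 108 genes the HSC-3 values were at or below the array median on all 6 arrays, as for SERPINB3, SERPINB4, PIP, OLFM4, IDO1, CA9, CLGN and MERTK, and for PXDN and MMP1 those of CAL27 were, so that a fall in that line could hardly be measured. In CAL27 cells CLGN exceeded the array median only on ICG-001 array 1, and KLRC3 only on DMSO array 2. The genes called in opposite directions are included with few exceptions, as are those named by the rule on genes or in the text above.

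The 23 genes that fell in CAL27 and rose in HSC-3 cells were led by defence genes. Secreted and S100 proteins among them were AGR2 (-4.73), S100A7A (-4.51), SAA2 (-4.01), S100A7 (-3.62), PGLYRP4 (-2.90) and S100A8 (-2.65). The serpin SERPINB13 (-4.09) and the keratin KRT15 (-3.05) are of squamous epithelium. Signaling genes were TNIP3 (-2.36), CCL20 (-2.08), KITLG (-1.91), CXCL8 (-1.83), TRIM22 (-1.81), MAP3K8 (-1.51) and TLR3 (-1.50). The rest were MIR378D2 (-3.64), LUCAT1 (-2.84), KLRC3 (-2.69), SLC2A12 (-2.48), SLC28A3 (-1.78), ZNF608 (-1.73), SCNN1A (-1.62) and PXDN (-1.22).

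The reverse, a rise in CAL27 and a fall in HSC-3 cells, was found for genes such as NT5E (2.19), AKAP12 (2.18), KCNQ5 (2.07), NOG (1.89), ANTXR2 (1.61), SHISA2 (1.57), SEMA7A (1.46) and MICAL2 (1.45).

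Falls larger in CAL27 cells without an opposite call included SERPINB3 (-3.26), SERPINB4 (-3.18), PIP (-3.10), OLFM4 (-3.02), MMP13 (-2.90), KRTAP4-8 (-2.72), SERPINA3 (-2.48) and IDO1 (-2.41). They also included SNORA2A (-2.17), KRTAP2-3 (-2.10), CYP24A1 (-2.05), MMP7 (-1.98), CD69 (-1.94), RARB (-1.76), EGLN3 (-1.70), DHRS9 (-1.60), SAA1 (-1.57) and CA9 (-1.56). Of the smaller ones, S100A9 (-1.32), CXCL1 (-1.13) and TNFSF10 (-0.71) act in inflammation, GBP2 (-1.79), IFIT1 (-1.25), OAS1 (-1.17) and IFIT3 (-0.83) are interferon-stimulated, and SCD (-0.95) and STARD4 (-0.72) act on lipids.

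Larger rises were those of LAPTM5 (1.81), CLGN (1.79), ACOXL (1.79), ETV5 (1.58), SPRY4 (1.54), ACAA2 (1.54), MAOA (1.49), ALDH1L2 (1.49), MAP1B (1.46), DBN1 (1.29), MERTK (1.27) and ETV4 (1.16). Smaller differences of this kind were those of ALDH3A1 (1.08), PDGFA (0.91), VIPR1 (0.89), ALDH1A3 (0.89), PHGDH (0.82), GPT2 (0.79), ALOX5AP (0.77), DYSF (0.73) and LAMA3 (0.67).

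Where both lines rose and HSC-3 rose further, the differences were CYP1A1 (-2.75), LCN2 (-2.36), LAMP3 (-2.13), DDIT3 (-1.98), CYP1B1 (-1.91), IL6 (-1.66), LURAP1L (-1.08), MSC (-1.06), TRIB3 (-0.95) and SLC7A11 (-0.79). Where both fell and HSC-3 fell further, they were SERPINB7 (1.62), TYMS (0.94), HELLS (0.92) and MKI67 (0.77). Other differences were negative for SLPI (-2.34), ATF3 (-1.81), WNT5A (-1.18), IRF9 (-1.14), MMP1 (-1.10), STAT2 (-0.99), SERPINB9 (-0.96), TIPARP (-0.93), CDKN1A (-0.85), SERPINB1 (-0.79) and AHR (-0.71), and positive for TGFA (1.26), WNT7A (0.97), DUSP6 (0.88) and IL11 (0.80).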

How the results depend on the processing

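The 6 arrays limit the precision (median SE of 0.11 on the log2 scale). Of the 221 higher and 232 lower calls, those under other choices were 180 and 180 without the intensity filter, 274 and 304 with a trend and robust prior and 275 and 292 with 1 fit over 12 arrays, and 719 and 796 with a p threshold of 0.05 and no fold threshold. Leaving out 1 array gave 75 to 132 higher and 83 to 149 lower. Larger responses in CAL27 numbered 33 higher without the filter and 171 higher and 225 lower with the p threshold of 0.05, and with 1 array left out 21 to 42 higher and 43 to 78 lower. Passing list members numbered 297, and 173 to 241 with 1 array left out, a setting with fewer samples. Apart from the replicate block, the other alternatives stayed within 1.5 times of these counts, and the signs of all 453 calls held under all 14 alternatives in which they were followed.

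Replicate numbers were not used as pairs. Deviations of same-numbered CAL27 arrays correlated at 0.18, 0.028 and 0.11, and DMSO array 2 correlated better with ICG-001 array 3 (0.058) than with its own number. With a replicate block, 69 genes were higher and 84 lower, of which 150 in all were shared with the 453, and larger responses in CAL27 were 19 higher and 46 lower. The block also moved the count of DNA replication genes that fell from 28 to 16 and that of hypoxia and glycolysis genes from 8 to 4. The latter count was also 4 without any 1 CAL27 array other than DMSO array 1.

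Of 81 results for single genes, 68 kept their call under every alternative in which they were tested, and 0 of 1279 values reversed. A setting whose filter removed a gene was not counted as a lost call. CLGN, ACAA2 and DHRS9 were thus followed in 13 of 14 alternatives in CAL27 cells. The differences of CLGN and ACAA2 were followed in 18 of 19. Besides the losses given in the sections above, and where tested, DHRS9 and NOG lost their call in CAL27 only under the block. ACAA2 lost it without any 1 DMSO array or ICG-001 array 1. DBN1 lost it without DMSO array 1 or 3 or any 1 ICG-001 array, under the block and without the filter. The difference of SNORA2A lost its call without CAL27 ICG-001 array 1 or HSC-3 ICG-001 array 3 and under the block.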

Other observations

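Groups outside the lists were noticed after their values were seen and were given no test of their own. Replication-dependent histone genes, which are transcribed in S phase, had 43 tested members, of which 21 fell and 0 rose in CAL27 cells at a median of -0.49, and 40 had a negative log2 fold change. H2BC3, H1-1, H4C3 and H3C1 had -1.15, -1.02, -0.90 and -0.76. In HSC-3 cells 12 fell and 5 rose, at a median of -0.01. Of all tested genes 5.9% fell and 5.33% rose in CAL27 cells, and 23.6% and 24.2% in HSC-3 cells. HSC-3 ICG-001 array 1 stood apart for several members. H2BC9 had 9.64 on it against 6.97 and 6.45 on arrays 2 and 3, and H3C4 11.13 against 9.06 and 9.02. H2AC4 was lower on it (6.31, against 6.96 and 6.81). The HSC-3 values without that array were not tested. Many of these genes are near-identical in sequence, so that values of single members are uncertain.

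MHC class II genes, which present peptides to helper T cells, had their highest DMSO levels in CAL27 cells for CD74 and HLA-DRA. Of 11 tested members, invariant chain and transactivator included, 8 rose in CAL27 cells and 0 fell, at a median of 0.56. HLA-DRA had 8.97, 9.10 and 9.20 on DMSO and 10.05, 9.74 and 9.92 on ICG-001 (0.82, adjusted p = 0.00398 from limma), and CIITA, the transactivator of the class, rose by 0.56 (adjusted p = 0.0281). The invariant chain CD74 had a mean of 9.71 on DMSO in CAL27 and of 4.06 in HSC-3 cells, where its response was -0.44 (adjusted p = 0.114). In HSC-3 cells 2 of the 11 rose and 1 fell, at a median of -0.01, where 24.2% and 23.6% of all tested genes did. CIITA rose there by 1.19 (adjusted p = 0.00073 from limma). HLA-DRA and HLA-DMB had 0.62 and -0.48 there (limma adjusted p = 0.0212 and 0.00139). Both lay below the array median on all 6 HSC-3 arrays, so that these changes are uncertain. HLA-DPA1, HLA-DPB1, HLA-DQA1, HLA-DQB1, HLA-DRB1 and CD74 also lay below it on all 6. The HSC-3 counts and median thus come largely from genes at low values, where a response could hardly be measured.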
